A study of Mus musculus with 12 samples.

Results

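Transcripts of 10 mouse genes that make and load the peptides shown by MHC class I were described across the 12 libraries: the immunoproteasome subunits Psmb8, Psmb9 and Psmb10, the proteasome activator subunits Psme1 and Psme2, the peptide transporter subunits Tap1 and Tap2, tapasin (Tapbp), the peptidase Erap1 and the transcriptional regulator Nlrc5. Their identifiers in the tables are ENSMUSG00000024338 for Psmb8, ENSMUSG00000096727 for Psmb9, ENSMUSG00000031897 for Psmb10, ENSMUSG00000022216 for Psme1, ENSMUSG00000079197 for Psme2, ENSMUSG00000037321 for Tap1, ENSMUSG00000024339 for Tap2, ENSMUSG00000024308 for Tapbp, ENSMUSG00000021583 for Erap1 and ENSMUSG00000074151 for Nlrc5. They were selected by gene name from a pathway list drawn up with earlier results of these data known, and all 10 were found among the 56061 gene identifiers listed for cultured cells and the 55878 listed for tumors. The cells were HM1, labelled as murine ovarian cancer cells, and carried either a control hairpin RNA (shControl, genotype given as wild type) or a hairpin against St3gal3 (shST3GAL3), a sialyltransferase gene. Each was measured in culture and as tumor tissue, with 3 libraries in each of 4 groups. The labels give no time, mouse strain, age, hairpin sequence or number of clones, and leave unsaid whether the 3 libraries of a group are separate cultures or animals. A p-value here therefore reflects only the scatter of the libraries, which may be technical.

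The proteasome degrades proteins inside the cell. Interferon gamma makes cells replace its catalytic subunits Psmb5, Psmb6 and Psmb7 with Psmb8, Psmb9 and Psmb10, and Psme1 and Psme2 form the cap PA28 that speeds peptide release. Tap1 and Tap2 carry peptides into the endoplasmic reticulum, Erap1 trims them there, tapasin holds empty class I molecules at the transporter, and Nlrc5 switches on class I genes together with RFX factors.

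The level of a transcript was given as TPM, its length-scaled share of a library's transcripts. The number of genes at 1 TPM or more was 12629 to 13145 in culture libraries and 14046 to 14534 in tumor libraries, and the depth is unknown because TPM keeps none. St3gal3 stood at 9.59, 12.5 and 12.9 TPM in the control cultures and 1.52, 1.25 and 1.83 TPM in the knockdown cultures. In tumors it stood at 14.0, 15.4 and 15.4 TPM in controls and 7.28, 5.87 and 5.76 TPM with knockdown, so the groups did not overlap in either setting. Of 6 epithelial markers, Krt8, Krt18 and Krt19 were abundant in culture, while Epcam and Krt7 were under 1 TPM in every culture library. Each library was scaled to the same TPM total, over sets of identifiers that differed between culture and tumors. A level in one is therefore set beside a level in the other as a description only. In tumors, fewer cells of a type and less RNA per cell cannot be told apart.

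RefSeq promoter windows (build GRCm38.p6, 250 bases before to 50 after a start site) were matched for 8 of the 10 genes, all but Tap2 and Nlrc5. Each was searched on both strands for the interferon-stimulated response element core (GAAA, any 2 bases, GAAA), the gamma-activated site (TTC, any 3 bases, GAA), the NF-kB core (GGGA, any 2 bases, TTCC) and the box CCAAT. These sequences are shown because 3 genes carry a match to an interferon-type motif and because Tap1 and Psmb9 share 1 stretch between them. Matches are in capitals, and every sequence runs 5′ to 3′ on the strand of the gene named.
Erap1, 60 bases before to 6 after its start, chr13:74639793-74639858, plus strand: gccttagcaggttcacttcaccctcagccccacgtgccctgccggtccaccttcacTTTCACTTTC
Psme1, 60 bases before to 19 after its start, chr14:55578434-55578512, plus strand: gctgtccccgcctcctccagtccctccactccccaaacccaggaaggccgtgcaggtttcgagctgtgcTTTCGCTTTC
Psmb8, from 130 bases before its start, chr17:34198065-34198138, plus strand: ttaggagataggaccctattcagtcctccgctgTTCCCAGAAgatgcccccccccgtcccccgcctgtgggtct
Tap1 to Psmb9, the 225 bases between their start sites, chr17:34187331-34187555, plus strand: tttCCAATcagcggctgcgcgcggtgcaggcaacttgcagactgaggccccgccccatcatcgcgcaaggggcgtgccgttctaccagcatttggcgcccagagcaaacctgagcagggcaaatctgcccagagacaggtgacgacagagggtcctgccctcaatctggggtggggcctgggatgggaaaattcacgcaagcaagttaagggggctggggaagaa

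The response element core was matched in Erap1 and Psme1, and 3.44% of the 32851 windows of this length hold it. In both genes the match is the reverse complement of the core. The gamma-activated site was matched in Psmb8 alone, 97 to 89 bases before its start, and 8.30% of all windows hold it. No matched gene held the NF-kB core, which 1.47% of windows hold. Tap1 and Psmb9 are transcribed away from each other, and the stretch as printed begins beside the Psmb9 start and ends beside the Tap1 start. The CCAAT box between them lies 222 to 218 bases before the Tap1 start and 8 to 4 bases before the Psmb9 start. Tapbp held 2 CCAAT boxes, at 248 to 244 and 165 to 161 bases before its start, and 37.4% of windows hold at least 1. A match is a description of letters and not a measured binding site.

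In tumors every one of the 10 genes had its 3 knockdown libraries above its 3 control libraries, and in culture the groups overlapped for 8 of the 9 genes tested. Over all genes tested, 9.81% were higher and 14.9% lower without overlap in tumors, and 5.25% and 2.45% in culture. The ratio of tumor group means, knockdown to control, ran from 1.62 for Psme1 to 3.36 for Psmb9. Changes were tested with limma on log2(TPM + 1) over all genes whose mean reached 1 TPM in some group, and a gene was called at an adjusted p under 0.05. Psme2, Tapbp and Erap1 rose in tumors by this test, which is 3 of 10, against 1.51% of all 14915 genes tested (1.07% called higher and 0.436% called lower). In culture none of the 9 tested was called, against 0.0296% of 13492 genes (0.0148% called higher and 0.0148% called lower).

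**Figure D1:**
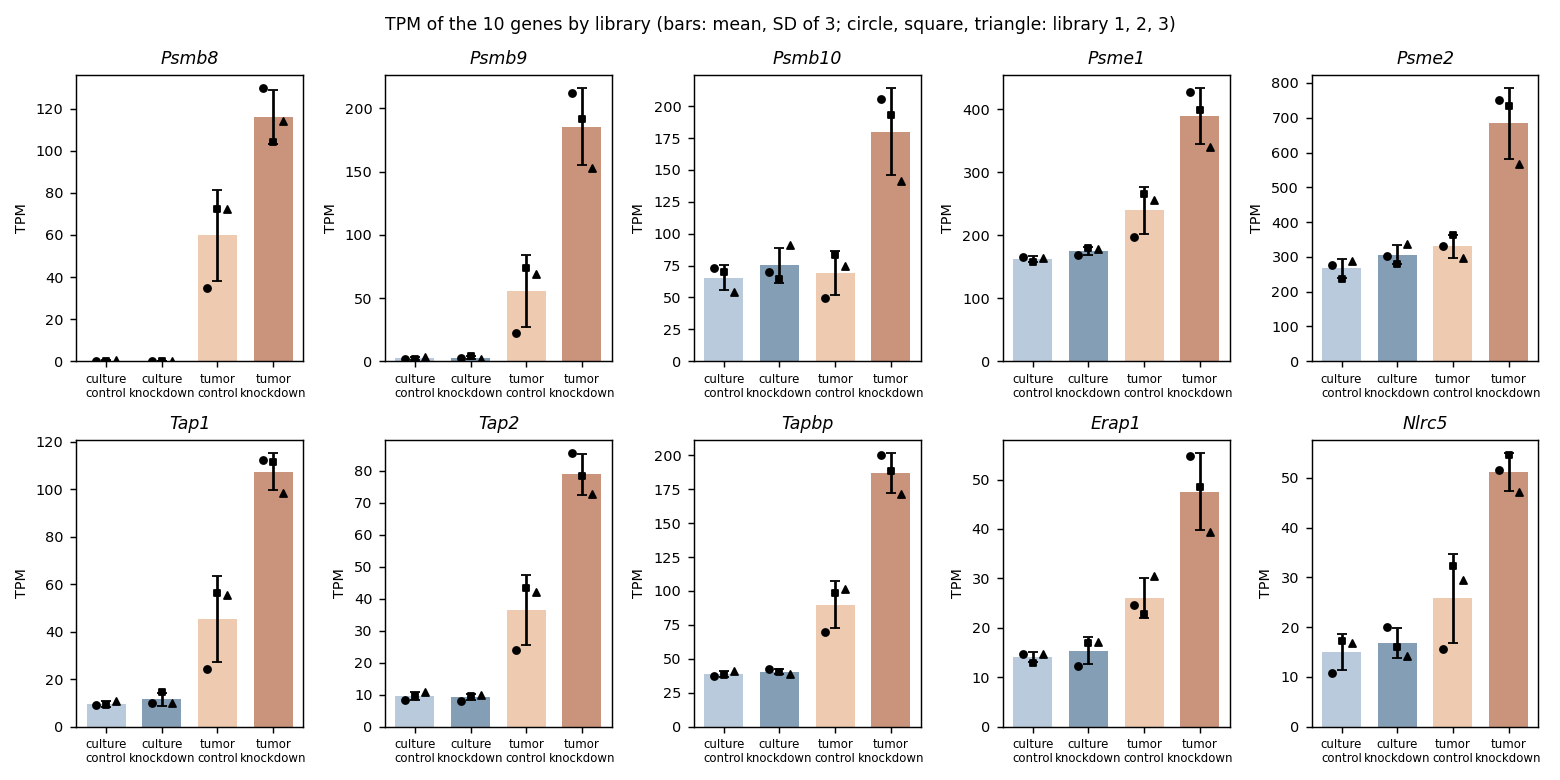
TPM of each of the 10 genes in the 4 groups, with the mean as a bar, the SD of 3 libraries as the error bar and each library as a point (circle, square and triangle for libraries 1, 2 and 3). In every panel the 3 knockdown tumors lie above the 3 control tumors, and Psmb8 and Psmb9 are near 0 in culture.

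The catalytic immunoproteasome subunits had low levels in culture, except for Psmb10. Psmb8, the counterpart of Psmb5, was listed at 0, 0.27 and 0.36 TPM in control cultures and at 0, 0.17 and 0.20 TPM in knockdown cultures, below the filter. Its tumor levels were 34.6, 72.2 and 72.4 TPM in controls, against 129.7, 104 and 114 TPM with knockdown. The tumor groups did not overlap, and control tumor 1 was the lowest. The change was 1.02 on the log2 scale (SE 0.313, adjusted p = 0.188) and was not called.

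Psmb9, the counterpart of Psmb6, stood at 2.05, 1.52 and 3.55 TPM in control cultures and 2.75, 3.81 and 2.09 TPM in knockdown cultures, which overlap. Its tumor levels were 22.4, 73.8 and 69.3 TPM in controls, against 212, 192 and 153 TPM with knockdown. All knockdown tumors were at least 78.8 TPM above the highest control. The log2 change of 1.89 was the largest among the 10 genes, with the largest error (SE 0.498, adjusted p = 0.150), and was not called.

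Psmb10, the counterpart of Psmb7, was present in culture at 72.7, 69.9 and 54.1 TPM in controls and 70.2, 64.2 and 90.9 TPM with knockdown. Control tumors were in a similar range, at 49.5, 83.2 and 74.3 TPM. Knockdown tumors stood at 205, 193 and 141 TPM, above every other library. The tumor change was 1.39 (SE 0.235, adjusted p = 0.0599), just short of the threshold.

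Set against the constitutive subunit in the same library, which removes the scaling of the library, each immunoproteasome subunit took a larger share in every knockdown tumor than in any control tumor. Psmb8 was 39.4% ± 13.0 (SD, n = 3) of Psmb5 in control tumors and 70.8% ± 7.10 in knockdown tumors. Psmb9 was 16.2% ± 7.70 of Psmb6 in control tumors and 47.8% ± 5.14 in knockdown tumors. Psmb10 was 43.1% ± 10.1 of Psmb7 in control tumors and 94.7% ± 11.9 in knockdown tumors, where in library 1 the 2 transcripts were about level at 104%. The log2 ratios differed by 0.90, 1.71 and 1.16 in that order, each with p = 0.1 in a two-sided exact permutation test, the smallest p that 3 against 3 libraries allow, and 0.167 after adjustment over the 5 ratios tested. In culture the log2 ratio differed by 0.21 for Psmb9 to Psmb6 (exact p = 0.8) and by 0.069 for Psmb10 to Psmb7 (exact p = 0.7), and Psmb8 to Psmb5 was not tested because Psmb8 was listed at 0 in 2 libraries. The constitutive subunits themselves were not called in tumors, with log2 changes of 0.13 for Psmb5, 0.21 for Psmb6 and 0.24 for Psmb7, and Psmb6 and Psmb7 were higher in the knockdown tumors without overlap.

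**Figure D2:**
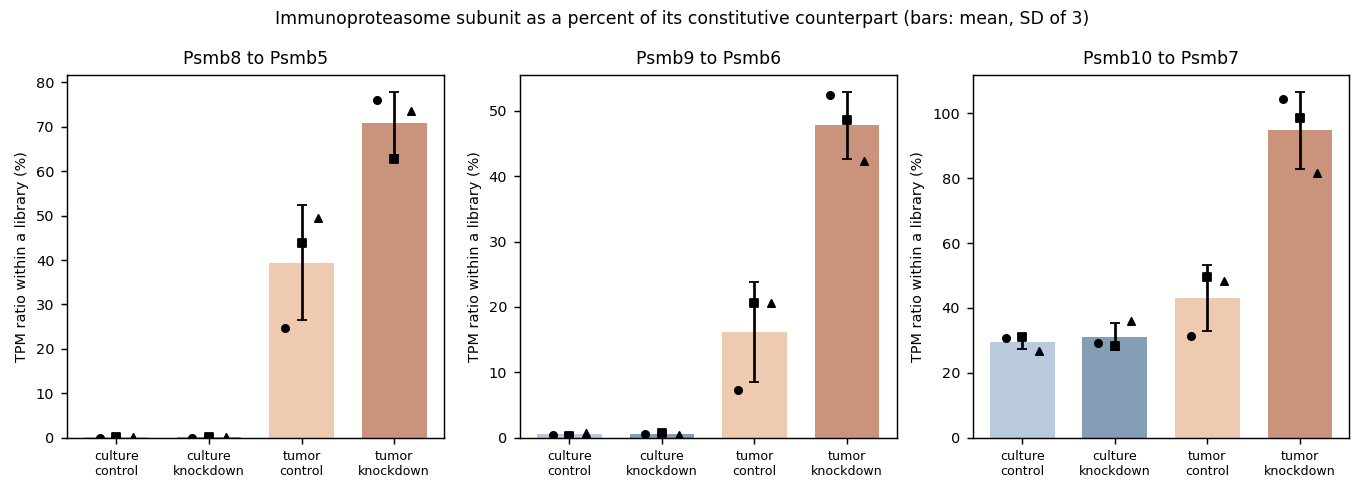
TPM of each immunoproteasome subunit as a percent of its constitutive counterpart in the same library, with the mean and SD of 3 libraries per group and each library as a point. Knockdown tumors lie above control tumors in all 3 panels, with means of 70.8%, 47.8% and 94.7%.

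The activator subunits were abundant everywhere. Psme1 stood at 165, 157 and 164 TPM in control cultures and 168, 179 and 178 TPM in knockdown cultures, and was the only gene of the 10 whose culture groups did not overlap, with a log2 change of 0.11. In tumors it stood at 197, 266 and 255 TPM in controls and 428, 398 and 340.2 TPM with knockdown (log2 change 0.70, SE 0.136, adjusted p = 0.0641), which was not called. Psme2 stood at 278, 236 and 288 TPM in control cultures and 303, 280.4 and 337 TPM in knockdown cultures. Its control tumors, at 331, 363 and 297 TPM, were close to the cultures, and its knockdown tumors stood at 751, 733 and 567 TPM. Psme2 rose by 1.04 on the log2 scale (SE 0.125, adjusted p = 0.0160), the smallest adjusted p of the 10. A near-identical copy, Psme2b, exists in the mouse genome, so the level of Psme2 depends on how reads were shared.

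Tap1 and Tap2, the subunits of the peptide transporter, stood near 10 TPM in culture. Tap1 was at 8.88, 8.89 and 10.9 TPM in control cultures and 9.78, 14.7 and 9.77 TPM in knockdown cultures. In tumors it was at 24.5, 56.2 and 55.6 TPM in controls and 112, 111 and 98.5 TPM with knockdown. The knockdown tumors were close together and the control tumors were not, and the change of 1.31 (SE 0.344, adjusted p = 0.146) was not called. Tap2 was at 8.30, 9.52 and 10.8 TPM in control cultures and 8.12, 9.60 and 9.83 TPM in knockdown cultures. In tumors Tap2 was at 23.9, 43.4 and 42.2 TPM in controls and 85.3, 78.4 and 72.7 TPM with knockdown, a change of 1.14 (SE 0.233, adjusted p = 0.0855) that was not called. Tap1, which shares its upstream stretch with Psmb9, differed from it in level and in how far the tumors stood apart. Psmb9 was 24.3% ± 7.82 (SD, n = 3) of Tap1 in control cultures and 25.1% ± 3.43 in knockdown cultures. In tumors it was 116% ± 21.3 in controls and 172% ± 17.1 with knockdown, without overlap, a log2 difference of 0.58 (exact permutation p = 0.1, the smallest possible).

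Tapasin (Tapbp) stood at 37.5, 37.8 and 41.0 TPM in control cultures and 42.5, 40.0 and 38.7 TPM in knockdown cultures. In tumors it stood at 69.8, 98.5 and 102 TPM in controls and 200.4, 188 and 171 TPM with knockdown. Tapbp rose by 1.06 on the log2 scale in tumors (SE 0.149, adjusted p = 0.0269).

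Erap1, the trimming peptidase, stood at 14.6, 12.9 and 14.7 TPM in control cultures and 12.2, 16.9 and 17.0 TPM in knockdown cultures. In tumors it stood at 24.7, 22.8 and 30.5 TPM in controls and 54.8, 48.4 and 39.4 TPM with knockdown. Erap1 rose by 0.84 (SE 0.148, adjusted p = 0.0494), close to the threshold.

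Nlrc5, the class I regulator, stood at 10.8, 17.2 and 16.8 TPM in control cultures and 20.01, 15.98 and 14.1 TPM in knockdown cultures. In tumors it stood at 15.6, 32.2 and 29.5 TPM in controls and 51.6, 54.6 and 47.1 TPM with knockdown. Control tumor 1 was within the range of the cultures. The change of 1.02 (SE 0.272, adjusted p = 0.139) was not called.

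The calls depended on single libraries. Control tumor 1 was the lowest control for 8 of the 10 genes, all but Erap1 and Psme2, and it was the lowest control for 47.2% of all genes tested. Without it 6 of the 10 were called (Nlrc5, Psmb8, Psmb9, Tap1, Tap2 and Tapbp), and 229 of all genes, against 225 with every library. Erap1 and Psme2 were then no longer called, and ratios of group means ran from 1.49 for Psme1 to 2.59 for Psmb9. Without knockdown tumor 1, or without knockdown tumor 2, none of the 10 was called, and 38 and 65 of all genes were. Leaving out control tumor 2 left Psme2 alone, control tumor 3 left Psme2 and Tapbp, and knockdown tumor 3 left Erap1 and Psme2. Of all genes, those fits called 103, 131 and 224 in that order. All 10 log2 changes in tumors were above 0 in each fit that left out 1 library. Because the tumor groups did not overlap for any of the 10, this sign was fixed in advance.

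**Figure D3:**
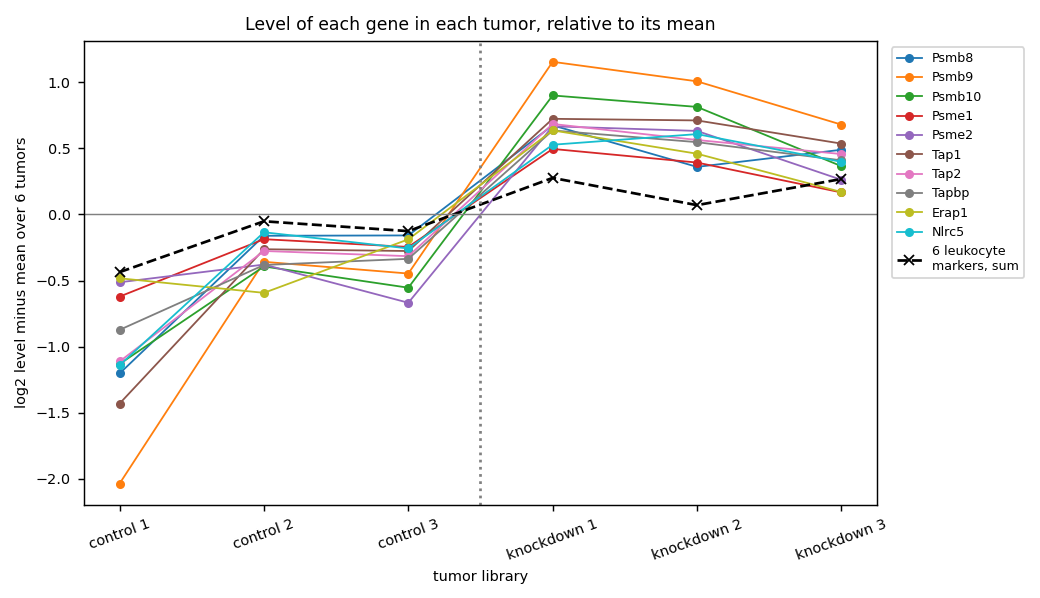
Level of each gene in each of the 6 tumors, as log2(TPM + 1) minus its mean over them, with the log2 of the summed TPM of 6 leukocyte markers, centred likewise, as a dashed line. The genes follow 1 order of libraries for the most part, lowest in control tumor 1 and highest in knockdown tumor 1, and the leukocyte sum spans a narrower range.

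Knockdown tumor 1 was the highest for 9 of the 10 genes (Nlrc5 was highest in knockdown tumor 2), and knockdown tumor 3 was the lowest knockdown tumor for 9 (Psmb8 was lowest in knockdown tumor 2). Over all genes tested, knockdown tumor 1 was the highest of its group for 29.3% and knockdown tumor 3 the lowest for 21.0%. Among the 10, Tap2 lay closest to their mean profile over the 6 tumors, with a root mean square difference of 0.0453 on the log2 scale, and Psmb9 farthest, at 0.485. Of 13046 other genes averaging 2 TPM or more, the 5 closest to that profile were Il12rb1 at 0.0585, Klrc2 at 0.0909, Ube2l6 at 0.0950, H2-T22 at 0.0987 and Parp14 at 0.109, and the median gene was at 0.665. Il12rb1 is a cytokine receptor subunit, Klrc2 an NK cell receptor, Ube2l6 the conjugating enzyme for ISG15, H2-T22 a nonclassical class I chain and Parp14 an ADP-ribosyltransferase. These 5 were chosen for their values in the same tumors, so their changes are a description: 1.17, 1.05, 1.19, 0.99 and 1.23 in that order on the log2 scale.

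The tumor and culture effects were compared in 1 fit over all 12 libraries, which takes 1 spread per gene for culture and tumors together. Tapbp was the only gene of the 10 called for this difference, against 0.754% of 15381 genes (0.572% with the larger value in tumors and 0.182% with the smaller), with a tumor change 1.00 larger than the culture change on the log2 scale (SE 0.175, adjusted p = 0.0241). Psme2 came next, at 0.84 (SE 0.171, adjusted p = 0.0528). The difference was above 0 for all 10 genes, from 0.59 for Psme1 to 1.67 for Psmb9. It had an unadjusted p under 0.05 for each, as did 11.1% of all genes. For Psmb8, under 1 TPM in every culture library, it rests mainly on the tumor levels. The median over the 10 was 1.05, against −0.064 over all genes.

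**Figure D4:**
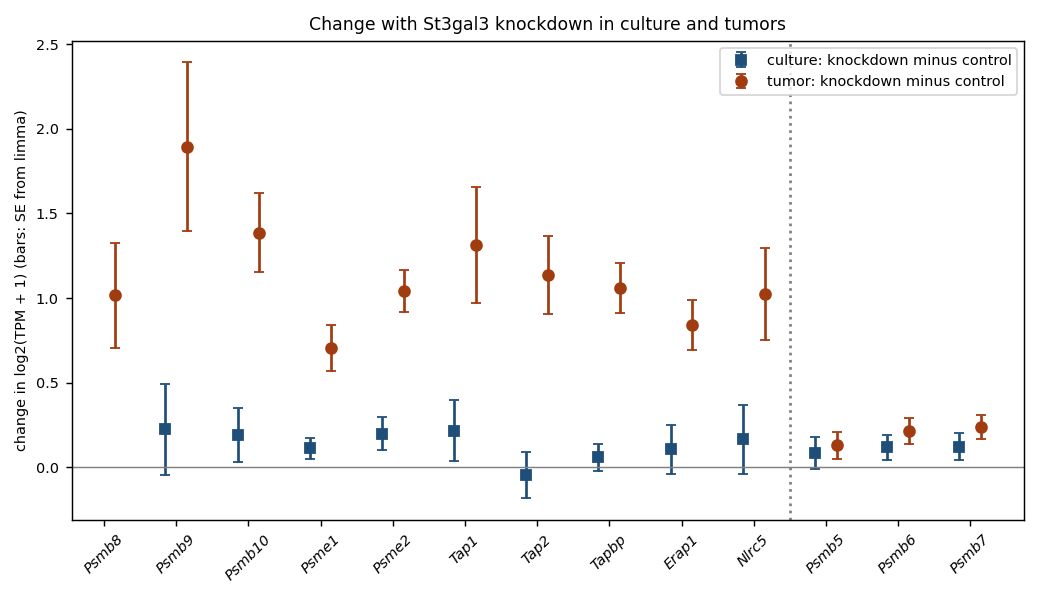
Change in log2(TPM + 1), knockdown minus control, in culture (squares) and tumors (circles), with the SE from limma, for the 10 genes and, right of the dotted line, the constitutive subunits. Tumor changes run from 0.70 to 1.89 for the 10 genes, culture changes from −0.045 to 0.22, and Psmb8 has no culture value.

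In culture the 9 genes tested had log2 changes from −0.045 for Tap2 to 0.22 for Psmb9, with a median of 0.17 against 0.022 over all genes. None had an unadjusted p under 0.05, as 3.42% of all genes did, and each adjusted p was 1.00. In tumors the median of the 10 was 1.05, against −0.053 over all genes, and all 10 had an unadjusted p under 0.05, as did 18.7% of all genes.

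Of 9 class I chains, H2-T23 alone was called in tumors, and none was called in culture. H2-T23, a nonclassical chain, had tumor levels of 226, 263 and 273 TPM in controls, against 478, 485 and 395 TPM with knockdown, a rise of 0.83 (SE 0.105, adjusted p = 0.0167). The list's median change was 0.80 and all 9 were higher without overlap, B2m least at 0.42. Several H2 genes are near-identical, so the split of reads among them is uncertain. The loading chaperones had a median of −0.19, 3 of 6 were lower without overlap, and 1 was called: Tapbpl, a tapasin relative that edits peptides away from the transporter, rose by 1.19 (SE 0.190, adjusted p = 0.0396), from 8.88, 11.6 and 13.1 TPM to 31.9, 27.9 and 20.7 TPM. Calr, the chaperone calreticulin, had a change of −0.24 (adjusted p = 0.130).

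None of the 11 other subunits of the 20S core was called in tumors, with a median change of 0.29 and the highest value, 0.46, in Psma5, and 10 of the 11 were higher without overlap. None of the 17 subunits of the 19S cap was called, with a median of 0.078 and 7 of 17 higher without overlap, and none of 8 genes of other caps and assembly, with a median of 0.11 and 3 higher without overlap. Non-overlap was thus shared by much of the proteasome, with smaller changes than in the 10 genes; the difference in size was not tested. Among 7 other peptidases tested none was called and the median was −0.072. Of 9 genes for RFX, NF-Y and CREB factors and the class II transactivator Ciita none was called, with a median of 0.078 and the highest value, 0.78, in Ciita.

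**Figure D5:**
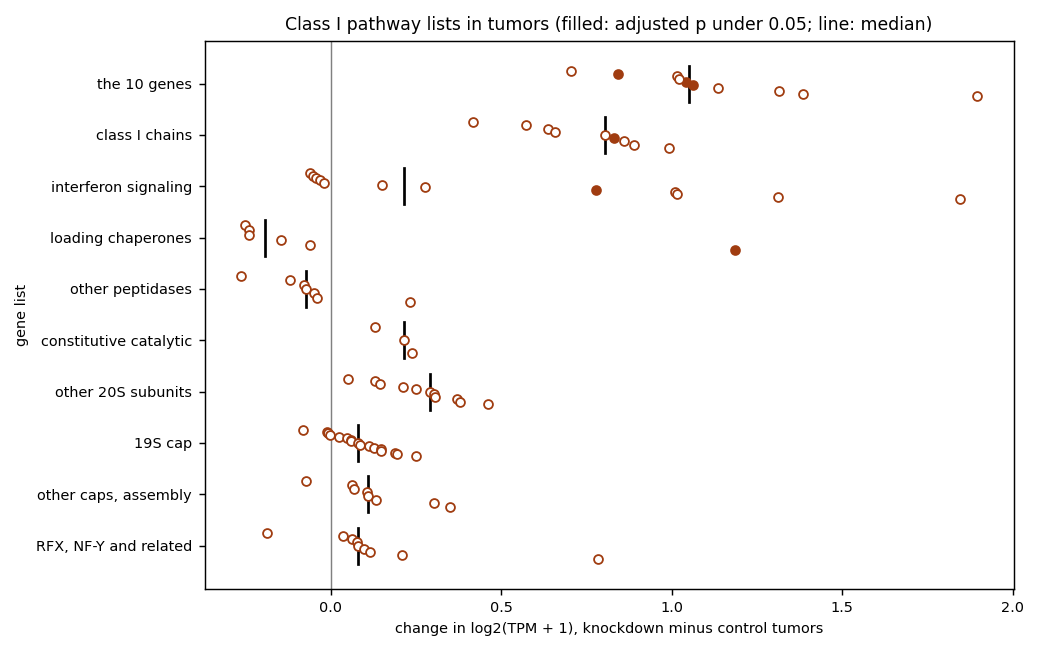
Change in log2(TPM + 1) between knockdown and control tumors for each gene of 10 lists, 1 point per gene, filled where the adjusted p was under 0.05, with the median as a line. The medians are 1.05 for the 10 genes, 0.80 for the class I chains and 0.078 for the 19S cap.

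Of 12 interferon signaling genes, Irf9 alone was called in tumors, with a rise of 0.78 (SE 0.0988, adjusted p = 0.0167). Irf9 is a subunit of the interferon-activated complex ISGF3. The list's median change was 0.21, with 5 of 12 below 0 and 5 of 12 higher without overlap. Irf1, an interferon-induced transcription factor, had tumor levels of 54.6, 96.4 and 88.9 TPM in controls, against 228, 206 and 156 TPM with knockdown. Control tumor 1 was lowest and knockdown tumor 1 highest, as for Psmb9. The Irf1 change of 1.31 (SE 0.257, adjusted p = 0.0855) was not called. The interferon gamma gene, Ifng, was listed at 0 in every culture library and had tumor levels of 0.33, 0.91 and 0.47 TPM in controls, against 2.61, 2.33 and 1.53 TPM with knockdown. The receptor genes Ifngr1 and Ifngr2 had changes near 0 and overlapped between the groups.

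Some summed cell type markers also differed between the tumor groups. The 6 pan-leukocyte markers summed to 472 to 617 TPM in controls and to 671 to 774 TPM with knockdown, with 0 of 6 called, and Ptprc had a change of 0.52 (adjusted p = 0.0935). The 7 NK and cytotoxic markers summed to 51.9 to 61.9 TPM and 130.3 to 186 TPM, with 4 of 7 called higher (Gzma, Klrd1, Prf1 and Gzmb). The 6 T cell markers summed to 8.50 to 23.4 TPM and 33.8 to 42.1 TPM with none called, and 5 mast cell markers to 30.7 to 53.4 TPM and 107 to 144 TPM with 4 called higher. The macrophage sums overlapped, at 1249 to 1758 TPM and 1290 to 1658 TPM, as did the dendritic cell, B cell and neutrophil sums. The fibroblast, endothelial and erythroid sums overlapped too, with ratios of knockdown to control means of 0.667, 0.686 and 0.602. The sum of skeletal muscle markers was 83.2 and 60.7 TPM in knockdown tumors 1 and 3 and at most 12.9 TPM in the other tumors. The epithelial sum was lower in knockdown tumors, at 2557 to 2825 TPM against 3225 to 3431 TPM. It was also lower without overlap in knockdown cultures, at 4567 to 4653 TPM against 4853 to 5052 TPM in control cultures. The part of these cells in the results was not tested.

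How the 10 genes compared between tumors depended on the cell markers they were set against. Divided by the pan-leukocyte sum of the same tumor, 9 of the 10 were higher in every knockdown tumor than in any control tumor, all but Erap1, against 2.35% of all genes so divided, and the ratios of group means ran from 1.24 to 2.66. Divided by the macrophage sum, all 10 were, against 5.87% of genes, with ratios from 1.65 to 3.56. Divided by the T cell sum only Psmb9 was, against 0.624% of genes, with ratios from 0.662 to 1.60. Divided by the NK and cytotoxic sum none was, against 0.402% of genes, with ratios from 0.621 to 1.31, and divided by the mast cell sum none was, against 0.261% of genes, with ratios from 0.547 to 1.08. The marker sums of T cells, NK cells and mast cells thus differed between the groups by as much as most of the 10 genes, with ratios of group means of 2.17, 2.67 and 2.73. Without control tumor 1 those ratios were 1.74, 2.57 and 2.96. Most of the 10 genes then had a larger ratio than the T cell sum. In culture the leukocyte markers summed to 6.37 to 9.04 TPM, most of it Cd53, and Ptprc was at 0 in all but 1 library. Psme1, Psme2, Psmb10, Tapbp, Tap1, Tap2, Erap1 and Nlrc5 were all measured in those libraries above 7 TPM.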

How the data were processed

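RNA-seq tables of 12 libraries were used, grouped by the sample titles. The authors deposited TPM per gene, per the file headers. Per the submitters' processing notes, GRCm39, HISAT, RSEM and fastp were used; their settings and any use of strand are not stated there. RSEM divides reads among similar transcripts.

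The tables held no counts, so the planned fallback was run: limma (version 3.58.1, R 4.3.3), trended and robust, on log2(TPM + 1), for genes averaging at least 1 TPM in a group. This scale understates changes of low genes. P-values were two-sided and adjusted by Benjamini-Hochberg across every gene in the fit, with calls under 0.05. Culture and tumor effects came from separate fits of 6 libraries, and their difference from a fit to identifiers shared by both. Subunit ratios were tested by exact permutation; 5 of 6 planned tests had values. The procedure was tested on simulated data. Likeness and levels divided by marker sums are descriptions, and the divisions and the ratio of Psmb9 to Tap1 were chosen after seeing the data.

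Members and lists were chosen with earlier results of these data known. Named were the 10 genes, Psmb5, Psmb6, Psmb7, St3gal3, Ptprc, up to 4 called genes of each list (or up to 2 by smallest p) and the 5 most alike; other genes named, among them Irf1, Ifng, B2m, Calr and the interferon gamma receptor genes, were chosen after their values were seen. One gene of the interferon list is not reported by name here. Sequences came from RefSeq. Plots used matplotlib 3.10.9 (Python 3.11.15).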

Additional observations from a re-analysis of the deposited data

Results flagged for a closer look

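Tumor and culture effects differed by the limma interaction test for 14 of the genes chosen by the naming rule. That rule took called genes of each list, also those called by this test, so the count of 14 is a description. Over all genes tested 0.754% were called for the difference. On the log2 scale the tumor change exceeded the culture change by 1.00 for Tapbp, 1.20 for Tapbpl and 0.87 for H2-T23. Among NK and cytotoxic markers it did so by 2.26 for Gzma, 1.37 for Gzmb, 1.00 for Prf1 and 0.99 for Klrd1. Among mast cell markers it did so by 1.52 for Cpa3, 1.26 for Tpsb2 and 1.25 for Fcer1a. These markers were at or near 0 in culture. For Cd53, at 3.97 to 6.03 TPM in culture, the difference was 0.79. The log2 change of Cd53 was −0.35 in culture and 0.44 in tumors, and neither was called. Ube2l6 (1.13) and Parp14 (1.18) were chosen for a tumor profile like that of the 10 genes, so their differences are no separate finding. For St3gal3, the hairpin's target, the difference was 1.19: its log2 change was −2.32 in culture (adjusted p = 0.00689) and −1.13 in tumors (adjusted p = 0.00954). Groups of 3 are too small for a test of single outlying libraries.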

How the results depend on the processing

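All 160 tumor changes of the 10 genes over 16 other settings were above 0, from 0.57 to 2.19 on the log2 scale. These settings refit the same tumors, whose groups did not overlap for the 10, so most could not change the sign. In the main fit 39.6% of all genes had a tumor change above 0. All 210 differences between tumors and culture for the 10 genes were above 0 too. No member was called in culture under any setting, where 121 of 135 changes were above 0. Counts of calls moved more. In tumors 225 genes and 3 of the 10 were called: without a filter 82 and 1, with array weights 795 and 6, with all 4 groups in one fit 599 and 9, and without knockdown tumors 1 and 3 72 and 0; that setting leaves 1 knockdown tumor, assumed to vary like the control tumors. A filter of 1 TPM in 3 libraries called 330 genes and 5 of the 10, and only genes of at least 200 bases 319 and 5. For the difference, 116 genes and 1 of the 10 were called. A pseudocount of 0.1 gave 26 and 0, quantile normalization 183 and 2, and array weights 259 and 4. Without a filter the counts were 95 and 0. They were 155 and 2 with 1 TPM in 3 libraries, and 166 and 2 with at least 200 bases. In culture 4 genes were called, and 11 with a pseudocount of 0.1 and 8 with the stricter filter, array weights or all groups in one fit. The cause was not tested.

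Leaving out 1 library gave 7 to 15 genes in culture, 38 to 229 in tumors with 0 to 6 of the 10, and 67 to 164 for the difference with 0 to 2. The tumor log2 ratios ran from 0.60 to 1.10 for Psmb8 to Psmb5, 1.21 to 1.96 for Psmb9 to Psmb6 and 0.95 to 1.28 for Psmb10 to Psmb7. In culture they ran from −0.071 to 0.60 for Psmb9 to Psmb6, with −0.047 the other value below 0, and from −0.038 to 0.13 for Psmb10 to Psmb7. Culture changes that turned ran from −0.040 (without control 1) to 0.30 for Creb1, −0.038 (without control 1) to 0.28 for Nlrc5, −0.13 to 0.038 for Tap2 (0.038 without control 3 and 0.033 without knockdown 1) and −0.24 to 0.054 (without knockdown 2) for Rfxap. Among markers, culture changes ran from −0.11 to 0.29 for Hba-a2 and −0.21 to 0.44 for Mylpf, which was −0.12 without control 1 and −0.034 with array weights. Cxcr2 in tumors ran from −0.082 to 0.29, was −0.0010 without control 2 and −0.016 without knockdown tumors 1 and 3, and its difference ran from −0.33 to 0.047; Adgre1 was −0.088 without knockdown tumors 1 and 3, in tumors and for the difference.

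Same-numbered deviations correlated at −0.060, −0.065 and −0.16 in culture and −0.14, −0.017 and 0.049 in tumors. Differently numbered ones correlated at −0.093 to 0.15 in culture and −0.14 to 0.15 in tumors. With groups this small, these correlations cannot show whether replicate numbers pair the samples, and the labels do not say. With a replicate block 4 genes were called in culture, 2 in tumors and 0 for the difference, with 0 of the 10 in each.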
